A study of Mus musculus with 3 samples.

Results

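RBFOX2 crosslink clusters in the exons of long non-coding RNAs (lncRNAs) of mouse liver cells are described here. A cluster was a member when its midpoint lay, on its own strand, in an exon of a GENCODE M21 gene of 1 of 6 lncRNA types (lincRNA, antisense, processed_transcript, sense_intronic, sense_overlapping or bidirectional_promoter_lncRNA) on chromosomes 1 to 19 and in no exon of a protein-coding gene. Gm42418, Malat1 and Neat1 were left out. Of 87021 deposited clusters, 589 met this rule (0.677%, Wilson 95% interval 0.625 to 0.734%), in 207 of 9418 annotated genes of these types (2.20%, 1.92 to 2.51%).

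The study crosslinked RNA to protein with UV light (150 mJ per cm2) in primary hepatocytes, which make up most of the liver, and recovered RNA bound to RBFOX2 with an RBM9 antibody by eiCLIP, an iCLIP variant in which the start of each cDNA marks the crosslinked nucleotide. The 3 libraries form 1 group, all from livers of C57BL6/J mice, with 3 livers and 3 pellets given in the labels of each. The study's methods describe the animals behind each culture differently, so whether the livers of a library were pooled is not known here. No library carries a genetic change, a treatment or a control group in the labels, and a size-matched input was prepared but not used here. The authors made 1 cluster list from the 3 libraries together, so every value below is pooled, no spread between libraries can be given and no difference was tested.

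RBFOX2 is a splicing regulator whose RNA-recognition domain binds UGCAUG and the shorter GCAUG, and it is best known for contacts in the introns of pre-mRNAs. Long non-coding RNAs are transcripts without a long open reading frame. Some silence imprinted neighbours, others are hosts whose introns release snoRNAs or miRNAs, and many have no assigned function. Because RBFOX2 acts mainly in the nucleus, where many lncRNAs stay, their exons can be read for contacts outside the usual intronic targets.

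The sequences below are from GRCm38, read 5′ to 3′ on the strand of the cluster through the annotated exons. The first set shows where GCATG, the motif of the RBFOX proteins written as DNA, lies beside the most counted clusters that hold it, with at most 1 cluster for each gene. Capitals mark GCATG.
Rab10os, chr12:3238333-3238393, plus strand, 1214 counts: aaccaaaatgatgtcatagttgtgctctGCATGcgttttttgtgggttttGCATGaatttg
Gas5, chr1:161035804-161035856, plus strand, 1081 counts: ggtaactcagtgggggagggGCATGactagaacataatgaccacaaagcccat
Gm26917, chr17:39846176-39846236, plus strand, 362 counts: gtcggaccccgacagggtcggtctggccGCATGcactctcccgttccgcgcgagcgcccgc
B930095G15Rik, chr14:121250618-121250678, plus strand, 182 counts: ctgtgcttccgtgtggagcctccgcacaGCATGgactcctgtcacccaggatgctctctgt
1110038B12Rik, chr17:34952097-34952157, minus strand, 91 counts: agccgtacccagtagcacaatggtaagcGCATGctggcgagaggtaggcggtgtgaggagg
Cct6a, chr5:129846041-129846101, plus strand, 82 counts: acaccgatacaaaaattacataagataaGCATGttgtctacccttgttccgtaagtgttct
Snhg17, chr2:158357395-158357432, minus strand, 68 counts: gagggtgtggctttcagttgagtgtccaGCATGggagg
Snhg12, chr4:132310666-132310709, plus strand, 60 counts: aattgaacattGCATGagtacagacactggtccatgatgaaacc

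In the Rab10os stretch both GCATG copies lie at the 5′ end of the cluster, starting 4 nt before and 18 nt after the first crosslinked position, and another copy in the window starts 57 nt after it. In Cct6a, Gm26917 and B930095G15Rik the copy shown starts 3, 6 and 10 nt before the 5′ end. In Gas5 and Snhg12 it starts 30 and 39 nt before it, in 1110038B12Rik 39 nt after it and in Snhg17 115 nt after it, past the cluster itself.

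The second set gives the most counted clusters without GCATG, again 1 for each gene, as the part of the cluster that an annotated exon covers (the middle 100 nt for Snhg20). They are shown because they hold much of the count and the letters printed lack the motif, although exons do not cover the whole window of Gm15564.
Gm15564, chr16:35981725-35981795, minus strand, 1410 counts: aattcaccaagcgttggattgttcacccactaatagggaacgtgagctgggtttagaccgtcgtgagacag
Gm26917, chr17:39843393-39843440, plus strand, 1187 counts: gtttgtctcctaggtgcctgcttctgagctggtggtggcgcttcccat
Snhg20, chr11:117077279-117077378, plus strand, 447 counts: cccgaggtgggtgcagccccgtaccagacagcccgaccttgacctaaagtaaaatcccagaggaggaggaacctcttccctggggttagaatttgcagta
Snhg1, chr19:8725913-8725939, plus strand, 277 counts: gagcctgaaaaggtgaacccactgggg
Gas5, chr1:161036516-161036552, plus strand, 243 counts: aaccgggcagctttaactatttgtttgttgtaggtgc
Rmrp, chr4:43492980-43492992, minus strand, 232 counts: ggaaagtccccgg

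The third set shows clusters of another kind, each the only member of its gene. Each line starts at the 5′ end of the cluster, and capitals mark 1 of 3 heptamers (ACGTGAT or ATGGTCA in the lines shown, with AGCCTAA in others). They are called adaptor-like here because the library adaptor starts with an A and a barcode. The study does not print the barcode letters, so likeness beyond the A was not checked.
Gm29461, chr1:98188116-98188139, plus strand, 32 counts: tctcaaatatttttATGGTCAagg
Zeb2os, chr2:45113170-45113193, plus strand, 36 counts: gtgagcatcatgtgaaaACGTGAT
Gm6598, chr5:130220943-130220966, minus strand, 36 counts: tacacagtaaaACGTGATcaaatc
1810019N24Rik, chr7:12949905-12949928, minus strand, 34 counts: ggactctggggaACGTGATatcac
Gm45885, chr7:105401069-105401092, plus strand, 31 counts: aggcaaggcagaATGGTCAagacc
A930006L05Rik, chr9:96710506-96710529, plus strand, 38 counts: ctccatggcgATGGTCAataaagt

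The members held 25002 counts, or 0.877% of the 2850863 counts of all clusters, where a count is taken to be 1 cDNA start. A member held between 10 and 1410 counts, with a median of 20 and quartiles of 14 and 33, and 41 members stood at the lowest deposited value of 10. The narrowest member was 1 nt wide and the widest 197 nt, and 11 nt was the median width. The counts were concentrated: the 10 highest clusters held 29.5% of them and the 50 highest 50.1%. By gene, the first 3 (Gm26917, Gas5 and Rab10os) held 44.7% of the count in 118 clusters, and the first 10 held 70.9% in 253 clusters. At the other end, 149 of the 207 genes had a single cluster, and these summed to 2809 counts with a median of 16.

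**Figure D1:**
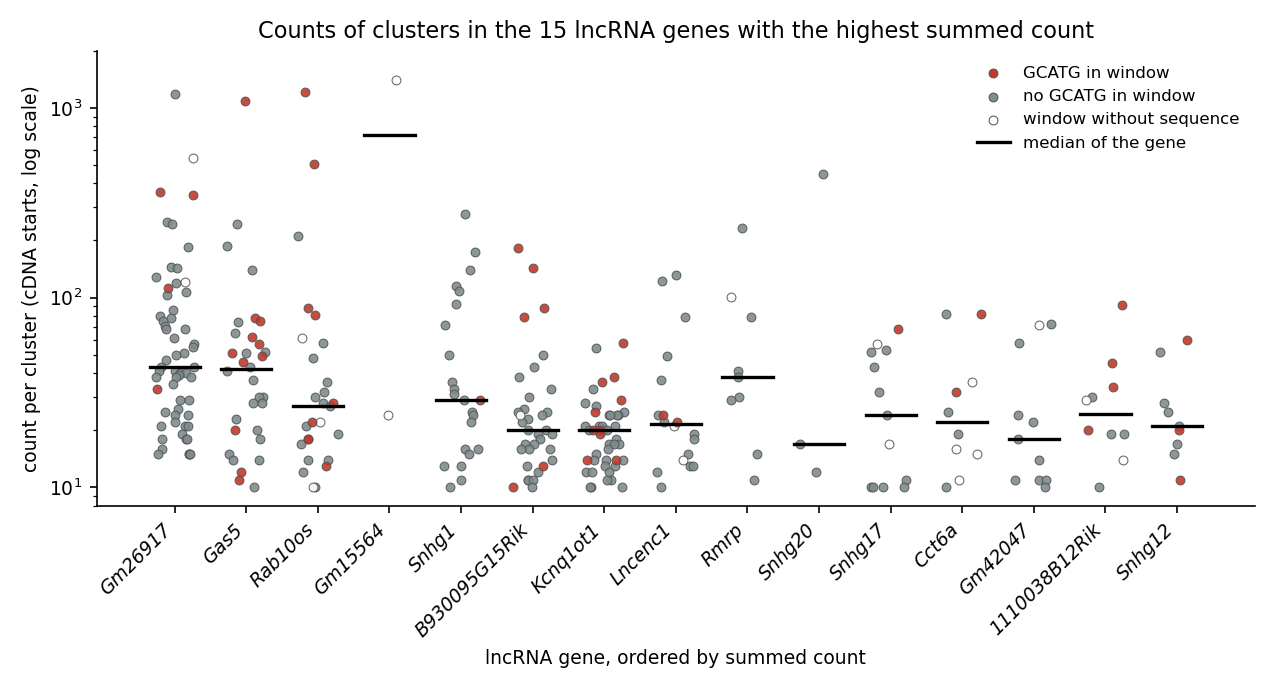
Count of each cluster (cDNA starts, log scale) in the 15 lncRNA genes with the highest summed count, in that order; red points have GCATG in the window of the cluster and 50 nt on each side, white points have no complete window sequence, and bars are medians. In Rab10os and Gas5 the highest cluster (1214 and 1081 counts) has GCATG, while in Gm26917, Snhg1 and Rmrp the highest (1187, 277 and 232 counts) has none.

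Gm26917 (ENSMUSG00000097971.3, lincRNA, chr17:39843013-39846341, plus strand) came first, with 59 clusters and 5805 counts, 23.2% of all member counts. Its annotation is a single exon of 3329 nt, and its 3′ end lies 12 nt from an annotated rRNA gene (CT010467.1, chr17:39846353-39848827) on the opposite strand. RefSeq places an 18S ribosomal RNA pseudogene, Rn18s-rs5, 13 nt past the same end. The clusters were very narrow: 52 of 59 were 5 nt wide or less, and the median width was 2 nt.

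The highest Gm26917 cluster (chr17:39843393-39843440) held 1187 counts. A cluster at the annotated start (chr17:39843007-39843028) held 545 and one near the end (chr17:39846210-39846214) held 362. By stretches of 20% of its length, from the 5′ end, the transcript held 2616 counts in 13 clusters, 1184 in 17, 284 in 6, 356 in 9 and 1365 in 14. The cluster of 1187 counts gave much of the first stretch. Its windows were 68.3% G or C, against 46.6% in the other member windows.

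Gas5 (ENSMUSG00000053332.13, chr1:161034422-161038539, plus strand), a growth-arrest transcript and host of several snoRNAs, held 32 clusters and 2705 counts. Its highest cluster, chr1:161035854-161036034, held 1081 counts, or 40% of the gene, and overlapped the annotated snoRNA Gm22489. The next held 243, 188 and 139 counts. Most lay outside the spliced exons: 24 of the 32 lay in sequence that is exonic only in retained-intron transcripts, and 26 lay in an intron of at least 1 other Gas5 transcript. The midpoint lay in an annotated small RNA for 6 of them.

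Rab10os (ENSMUSG00000079179.9, antisense type, chr12:3235504-3250377, plus strand), named for its position opposite to the Rab10 GTPase gene, held 27 clusters and 2659 counts. The first cluster (chr12:3238365-3238435) held 1214 counts, the second (chr12:3238171-3238194) 506 and the third (chr12:3238999-3239030) 212. All 3 lie in exon 4, the last exon of the transcript Rab10os-203, which is 3382 nt long and intronic in 5, 5 and 4 other spanning transcripts. The 2 highest clusters have TGCATG in their windows, and the third has no GCATG.

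Gm15564 (ENSMUSG00000086324.8, antisense type, chr16:35966752-35983230, minus strand), opposite to the importin gene Kpna1, held the most counted member of all. That cluster, chr16:35981703-35981800, held 1410 counts, 98.3% of the gene, and spans exon 2 of Gm15564-202, an exon of 71 nt printed above. The other cluster of the gene held 24 counts. The first 51 nt of this exon are identical, base for base, to a stretch of the mitochondrial leucyl-tRNA synthetase gene Lars2 (chr9:123462049-123462099, plus strand), where a further deposited cluster held 696 counts. Of the 52 possible 20-mers of the exon, 32 occur in Lars2. As background, these letters are also known from the large ribosomal RNA, whose sequence was not among the transcripts searched here or for any other member, Gm26917 included.

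Such likeness was looked for in every member. Of 568 members with enough sequence, 82 (14.4%, 11.8 to 17.6%) shared at least 1 20-mer with an annotated transcript of a gene elsewhere, and 11 shared all of theirs. The 82 summed to 3389 counts, of which Gm15564 gave 1410. In Gm42047 (chr8:121833247-121841178, 11 clusters, 324 counts) 10 of 11 clusters did so. Gm26917 had 1 such cluster among the 57 searched, Gas5 had none, and Rab10os had 2 of 25. The authors kept uniquely mapped reads, and the part of shared sequence in these counts was not tested.

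**Figure D2:**
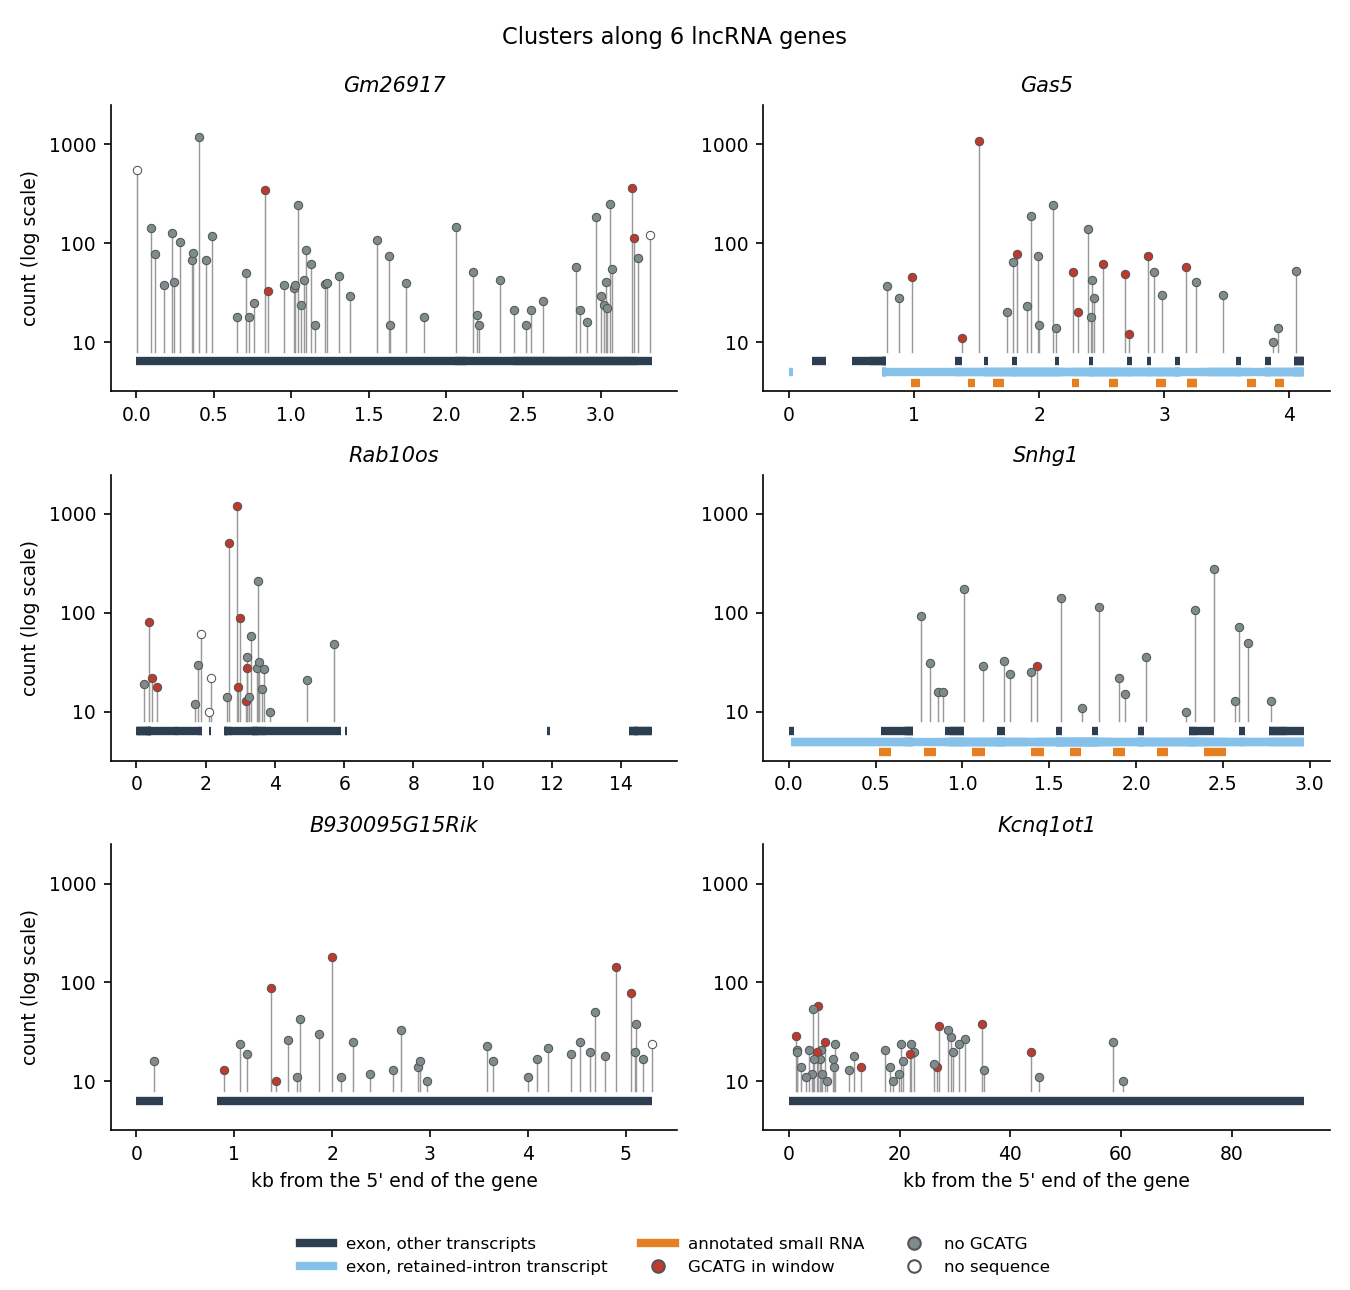
Clusters along 6 lncRNA genes, by distance of the cluster centre from the 5′ end of the gene (kb) and count (log scale), with red points for GCATG in the window; bars below show exons of retained-intron transcripts (light), exons of other transcripts (dark) and annotated small RNAs (orange). Clusters of Gas5 and Snhg1 lie mostly over the light bars between short dark exons, and the highest Rab10os clusters lie in 1 exon of 3382 nt. Kcnq1ot1 clusters are low and lie in the first 64.9% of the transcript, most of them toward its 5′ end.

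snoRNA hosts were the best represented of 4 groups of known lncRNAs. Counts were not set against RNA level, so ranks and absences in these groups do not measure a preference of RBFOX2. snoRNAs are short guides for modification of other RNAs, and most are cut from introns of a host. All 4 groups were matched by gene symbol alone, so hosts annotated under another name are missing from these totals. Of 21 listed hosts, 17 were found by symbol in the 6 types and 12 had members, with 102 clusters and 5697 counts (22.8% of all member counts). Of these clusters 53 lay in sequence exonic only in retained-intron transcripts, 72 were intronic in another transcript and 24 had their midpoint in an annotated small RNA (1410 counts). GCATG was in 20 of 94 windows (21.3%, 14.2 to 30.6%).

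After Gas5 came Snhg1 (chr19:8723475-8726443, plus strand) with 23 clusters and 1352 counts. Its highest cluster, chr19:8725913-8725939, held 277 counts and lies in the box C/D snoRNA Snord22, and the next held 174, 140, 115 and 108 counts. Only 1 of its 23 windows held GCATG. Snhg20 (chr11:117076008-117078955) held 476 counts in 3 clusters, of which 447 lay in the one cluster over the small Cajal body RNA Gm26083. Neither of these 2 hosts has the motif beside its most counted cluster.

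Snhg17 (chr2:158353700-158361580, minus strand) held 397 counts in 13 clusters, none above 68. Snhg12 (chr4:132308623-132311024) held 249 counts in 9 clusters. In Snhg12, 5 of the 9 lie in snoRNAs: its highest cluster, 60 counts, is in Snord99 and the second, 52 counts, is in Snora16a. Zfas1 held 110 counts in 3 clusters and Snhg8 held 101 in 3. Dancr, Snhg3, Snhg5, Snhg6 and Snhg15 had members below 100 counts each, while Snhg9, Snhg10, Snhg14, Snhg18 and Epb41l4aos had none.

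Among 8 imprinted lncRNAs, Kcnq1ot1 and Airn had members. Kcnq1ot1 (ENSMUSG00000101609.2, chr7:143203458-143296549, minus strand) is the unspliced antisense RNA that silences the Kcnq1 domain on the paternal chromosome. It held 45 clusters, second in number to Gm26917, but only 936 counts, from 10 to 58 for each cluster with a median of 20. The clusters were spread thinly, and most lay toward the 5′ end. Their starts were 560 nt apart at the median and up to 13340 nt, and the first lay at 1.38% and the last at 64.9% of the transcript. Density was 0.483 clusters per kb of exon against 17.7 in Gm26917 and 8.51 in Gas5. GCATG was in 10 of its 45 windows (22.2%). Airn had 1 member with 14 counts, and H19, Meg3, Rian, Mirg, Nespas and Peg13 had none.

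Of 10 miRNA hosts, 8 were found by symbol in the 6 types and 3 had members. Mir17hg, host of the oncogenic miRNA cluster that includes Mir18 and Mir19a, held 120 counts in 7 clusters. One of 11 counts lay in Mir18, and the highest held 30. Mir22hg held 90 counts in 4 clusters and Dleu2 held 43 in 3.

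Of 22 lncRNA symbols listed for regulatory or catalytic roles, 18 were found in the 6 types and 4 had members. Synonyms were not searched, so a listed gene annotated under another symbol was not counted under its listed one. Rmrp, the RNA of the nuclease MRP that processes ribosomal RNA, held 576 counts in 9 clusters within its 281 nt (chr4:43492783-43493063, minus strand), all of 13 nt or less. Its highest cluster, chr4:43492980-43492992, held 232 counts and the next 101 and 79. None of its 8 windows held GCATG. Lncpint, a target of p53, held 172 counts in 8 exonic clusters. Pvt1, the neighbour of Myc, held 83 in 4 and 2900097C17Rik held 30 in 1, while Tug1, Miat, Crnde and the other symbols found had none.

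B930095G15Rik (ENSMUSG00000085133.2, sense_intronic type, chr14:121248706-121253971, plus strand) lies within the gene Farp1 on the same strand. It held 35 clusters and 1139 counts, so reads of the Farp1 pre-mRNA and of this transcript cannot be told apart. Its 3 highest clusters with GCATG held 182, 144 and 88 counts. Lncenc1, described in embryonic stem cells, held 646 counts in 18 clusters, led by 132 and 122 counts in its last exon (chr13:97495813-97495836 and chr13:97495184-97495228), both without the motif.

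The remaining high genes were Cct6a, 1110038B12Rik and Gm42047. Cct6a held 328 counts in 10 clusters. GENCODE types it as processed_transcript, but RefSeq lists it as protein coding, a subunit of the CCT chaperonin. In all, RefSeq gave a type for 125 member genes by symbol, and 4 of them, with 14 clusters and 383 counts, were protein coding there. 1110038B12Rik (chr17:34950238-34952471, minus strand) held 311 counts in 10 clusters and had GCATG in 4 of 8 windows, whereas none of the placements of those lengths elsewhere in its exons held it. Its exons cover 1811 nt, and placements fit only in the gaps between clusters.

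Within the transcripts, 202 members (34.3%) lay in single-exon transcripts, 124 (21.1%) in first exons, 45 (7.64%) in internal exons and 218 (37%) in last exons. The exons were long, with a median of 2603 nt for last exons and 533 nt for internal ones. Of 387 members in spliced transcripts, 43 (11.1%, 8.35 to 14.6%) lay within 50 nt of a splice site and 242 (62.5%, 57.6 to 67.2%) lay more than 300 nt away. Divided into stretches of 20% of the transcript, the first and second held 143 and 146 members and the last held 96.

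Exon annotation often differed between transcripts of a gene. For 180 members (30.6%, 27 to 34.4%) in 75 genes, with 9039 counts, the midpoint was intronic in another transcript of the gene. Sequence annotated as exon only in retained-intron transcripts held 72 members and 4165 counts. A small RNA held the midpoint of 44 members, of which 32 lay in snoRNAs or scaRNAs and 9 in Rmrp. A further 100 members (17%, 14.2 to 20.2%) in 40 genes lay inside a protein-coding gene on the same strand, where pre-mRNA and lncRNA reads cannot be told apart. On the opposite strand, 95 members faced a coding gene and 26 of these faced a coding exon.

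The introns of the same genes had fewer clusters for their length. Over the 207 genes there were 0.767 member clusters per kb of exon and 0.189 intronic clusters per kb of intron, from 610 intronic clusters, 86 of which also lay inside a protein-coding gene. The genes were chosen for having an exonic cluster, so this difference is fixed in part by the rule. Among 29 genes with an intron and at least 3 members, 24 had the higher density in exons and 7 had no intronic cluster. Sequence exonic in any transcript, retained-intron ones included, was counted as exon, which left some of these 7 with little intron. Gas5 had 358 nt of it, Snhg17 829 nt and Snhg20 153 nt, so a lack of intronic clusters there says little, whereas AI506816 had 9893 nt.

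**Figure D3:**
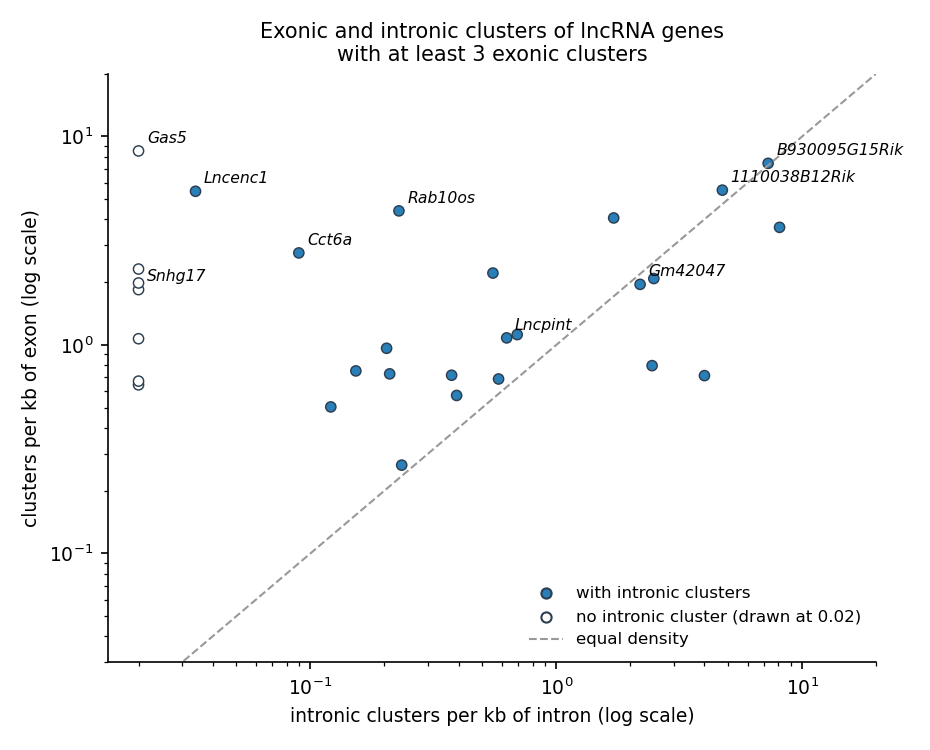
Clusters per kb of exon (vertical, log scale) against intronic clusters per kb of intron (horizontal, log scale) for the 29 lncRNA genes with an intron and at least 3 members; white points have no intronic cluster and are drawn at 0.02, and the dashed line marks equal density. Lncenc1 and Rab10os lie far above the line. Gas5 does too, but with 358 nt of intron and no intronic cluster its horizontal place is only drawn. B930095G15Rik and 1110038B12Rik lie near the line.

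GCATG was sought in a window of each cluster and 50 nt on each side, where annotated exons cover it whole, and set beside every window of the same length in exons of the same gene that touches no deposited cluster. Of 514 member windows, 114 (22.2%, 18.8 to 26%) held GCATG. For the 505 with such placements the share was 22.4%, and that of the placements was 13.4%, a difference of 8.93 percentage points (5.51 to 12.8) and a ratio of 1.66. Here and below, the interval of a difference is that of the window share less the placement share, which is taken as exact. TGCATG was in 12.1% of windows and 4.11% of placements, a ratio of 2.94. Of the control motifs, GCACG was in 3.96% against 5.81% and CATGC, the reverse complement, in 13.5% against 9.79%. CATGC is not independent of GCATG, since GCATGC holds both. That hexamer was in 39 of 505 windows (7.72% against 2.78% of placements). In all exons of the 6 gene types away from clusters, 9.23% of stretches of 101 nt hold GCATG and 3.16% hold TGCATG.

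The higher share was not spread evenly over genes. Among 55 genes with several members, the share was higher in clusters for 30, lower for 19 and equal for 6. Among the 114 genes with a single member, where the window either has the motif or has not, 28 had it (24.6% against 13.4% of placements). The difference was 11.2 points (4.18 to 19.8) in these genes and 8.28 points (4.48 to 12.6) in genes with several members. The intervals cover counting error only, and neighbouring windows of 1 gene share sequence.

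Gene types and genes differed in these shares. In antisense genes 30.2% of windows held GCATG against 12% of placements, in sense_intronic genes 24.1% against 11.4% and in processed_transcript genes 22.1% against 12.1%. Rab10os and Kcnq1ot1 gave 24 and 45 of the 116 antisense windows, and B930095G15Rik 34 of the 58 sense_intronic ones. By gene, the share was higher in clusters for 15 antisense, 9 sense_intronic and 14 processed_transcript genes, and lower for 19, 12 and 23. A gene whose only window lacks GCATG can count as lower. In lincRNA genes 15.9% of windows held GCATG against 15.9% of placements, and 57 of those 182 windows were of Gm26917. In that gene 4 of 57 windows held GCATG (7.02%, 2.76 to 16.7%) against 23.2% of its placements. These placements fit only in the gaps between its 59 clusters in 3329 nt, and their number is not given here. Without Gm26917, lincRNA genes had GCATG in 20% of 125 windows against 12.6% of placements, a difference of 7.44 points (1.37 to 15.3). Over all members without that gene the difference was 12.1 points. In Gas5 the share was 34.4% against 19%, in Rab10os 37.5% against 17.5% and in Kcnq1ot1 22.2% against 10.2%. It was also below the placements in Lncenc1 (12.5% of 16 windows, 3.5 to 36%, against 21.9%) and in Snhg17 (9.09% of 11, 1.62 to 37.7%, against 16.4%). In Snhg20 it was 0 of 3 (up to 56.1%) against 39.4%. The intervals of these genes include the share of their placements.

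The shares were also set out by count and width. At the lowest counts (10 to 14) 15.6% of windows held GCATG against 11.1% of placements, and at the highest (37 to 1214) 29.7% against 16.9%. The differences, 4.51 points (-0.481 to 11.2) and 12.8 points (5.26 to 21.5), had overlapping intervals. Without Gm26917, which had no cluster under 15 counts, the difference at the highest counts was 25.1 points (15.3 to 36), against 4.51 at the lowest. That value rests on 82 windows in 31 genes, and Gm26917 was left out of this group after the values were seen. Neighbouring windows of a gene share sequence, which the interval does not cover. Whether the difference rises with count was not tested. Clusters of 5 nt or less had GCATG in 12.9% of windows against 13.9% of placements, and those of 6 to 50 nt in 26.6% against 11.9%. The direction in the narrow clusters turned without Gm26917, to 15.7% of 127 windows against 10.3%, a difference of 5.40 points (0.087 to 12.7). Members exonic in every spanning transcript had a difference of 7 points (3.03 to 11.6), or 11.2 (6.68 to 16.4) without Gm26917, and those intronic in another transcript 12.9 (6.88 to 20.1).

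**Figure D4:**
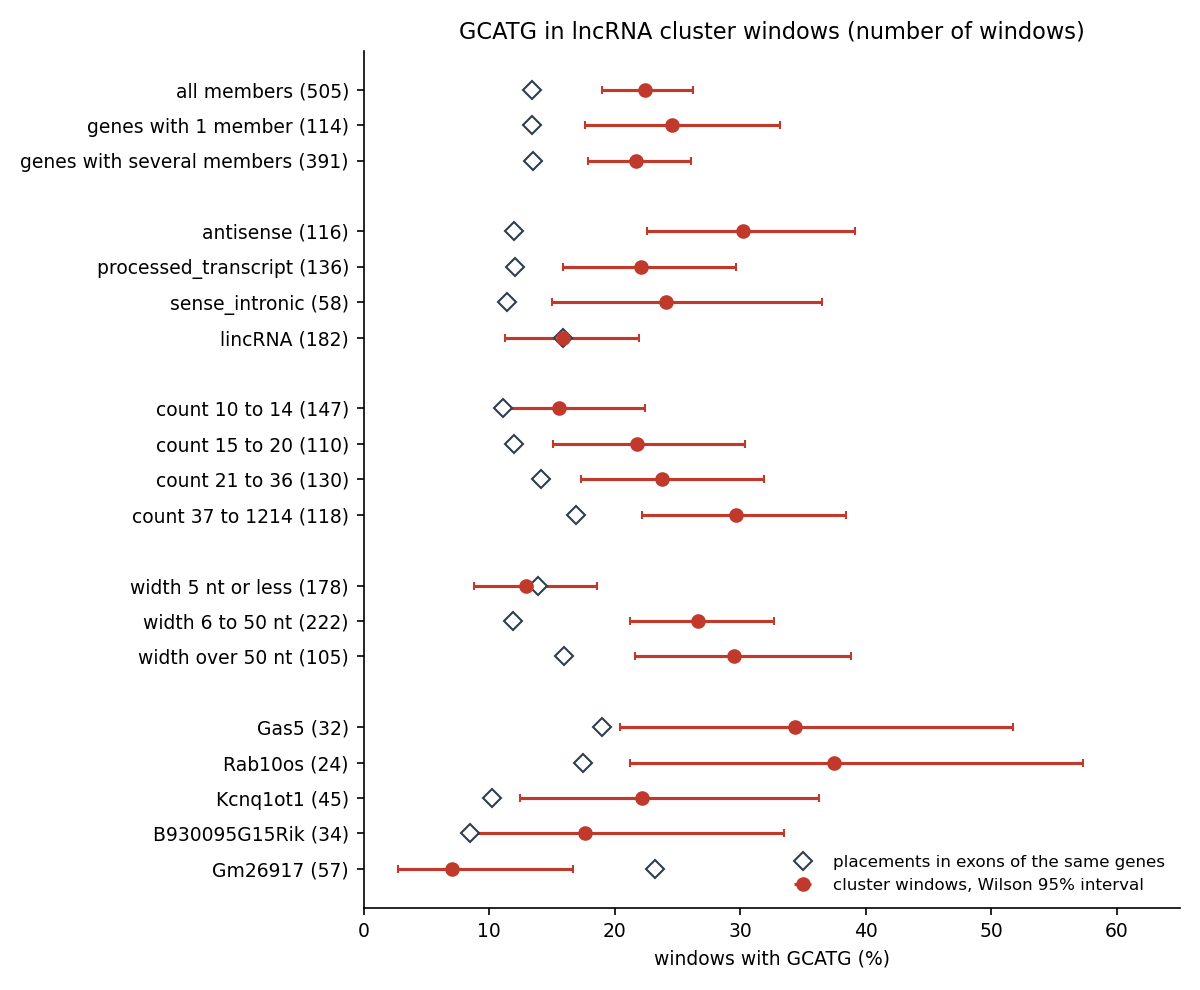
Share of cluster windows with GCATG (red, with Wilson 95% intervals) and of equally long placements in exons of the same genes (open diamonds), with the number of windows in parentheses. The red point coincides with the diamond for lincRNA genes (15.9% and 15.9%) and lies below it for clusters of 5 nt or less and for Gm26917 (7.02% against 23.2%), a gene that is in both of those groups and without which they had 20% against 12.6% and 15.7% against 10.3%.

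Around the 5′ end of 478 members with 100 nt of sequence on each side, GCATG began at 0.241% of positions from 20 nt before to 19 nt after it, and at 0.186% of positions 60 to 100 nt away. The fullest 10 nt held 17 starts and lay 30 to 21 nt before the 5′ end. These are small numbers, 46 and 73 starts, and no sharp peak at the 5′ end of the clusters was seen. The list gives clusters and not single cDNA starts, so distances to each crosslinked nucleotide could not be measured.

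Over all 4096 hexamers, those with the highest ratio of windows to placements were rare and rich in CG: all 25 of the highest contained CG, none contained GCATG, and TGCATG ranked 70. Among the 570 hexamers in at least 5% of windows, a limit chosen after the values were seen, TGCATG ranked 2, in 61 of 505 windows (12.1% against 4.11%). The first was CTCCCG, in 30 windows, 19 of them in Gm26917. Without Gm26917, TGCATG again ranked 2, of 670, behind ACGTGA (25 windows, 5.58% against 1.21%), which is part of the adaptor-like heptamer ACGTGAT.

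Those heptamers lay 6 to 17 nt after the 5′ end in 36 of 566 members (6.36%, 4.63 to 8.68%), 16 with ACGTGAT, 16 with ATGGTCA and 4 with AGCCTAA. The same search found them in 1.15% of 9800 clusters in 3′ UTRs and in 1.36% of 9047 in coding sequence. All 36 were the only member of their gene, where they made up 26.1% of 138 clusters (19.5 to 34.0%), against 0 of 428 in genes with several (0 to 0.890%). They were low, with 653 counts in all and none above 38. The heptamers were picked on other clusters of these same libraries, so their presence here is not independent support. Among the 207 genes, 36 thus rest on a cluster with such a sequence and no other.

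Set beside other clusters, lncRNA exon clusters had counts and motif shares near those of 3′ UTRs. The median count was 20 in both, against 18 in coding sequence, 17 in introns and 15 where no gene lay on the strand. A count of 39 or more, the top 10% of all clusters, was reached by 20% of members (17 to 23.5%), 18.7% of 3′ UTR clusters (18 to 19.5%), 11.1% of coding and 8.22% of intronic clusters. GCATG exceeded its placements by 10.6 points (9.74 to 11.4) in 3′ UTRs and 2.43 (1.39 to 3.55) in coding sequence, against 8.93 (5.51 to 12.8) here. Widths differed more: 34.5% of members (30.7 to 38.4%) were 5 nt wide or less, against 27.3% in 3′ UTRs, 16.2% in coding sequence, 22.3% in introns and 52.5% where no gene lay on the strand. Without Gm26917 the share of members was 28.5% (24.8 to 32.5%), near that of 3′ UTRs.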

How the data were processed

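RBFOX2 eiCLIP was carried out in 3 libraries of primary hepatocytes. The authors trimmed adaptors with cutadapt, discarded reads under 18 nt, aligned the rest end to end to GRCm38 with STAR 2.4.2a, kept uniquely mapped reads, removed duplicates by position and random barcode, and grouped cDNA starts of all libraries with Paraclu. The submitters' notes also name CASAVA 1.8.4. The deposited unit is a whole-number count per cluster, at least 10, not normalised; that it counts cDNA starts was inferred from the values. Depth per library cannot be read from the pooled list, and the input library was not used here.

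Clusters were assigned by midpoint with GENCODE M21 (the study named M20). A cluster in 2 member genes went to the longer. Sequence was read from annotated transcripts by the genomic position of their exons, with 0 length mismatches and 0 conflicts. Motif placements were enumerated, not drawn. Splice-site distances, exon place and position refer to the longest transcript whose exon holds the midpoint. Wilson 95% intervals cover counting error only, and no test was made. Intervals of differences from placements hold the placement share fixed. The upper limit of a share of 0 is that of its Wilson interval. Coordinates are 1-based.

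Named were the 15 genes with the highest summed count, the 10 with the most clusters, the 10 highest clusters, the 8 highest GCATG clusters (1 per gene) and genes of the 4 lists with at least 100 counts; other genes were named after their values were seen. Members, lists and heptamers were chosen with earlier results of these data known. Alternatives changed the point of a cluster, gene types, count filter, merging, motif, flank and background, and left out small RNAs, coding spans, heptamers, likeness to structural RNA or single genes. Placement and lookup code was tested on simulated data. Python 3.11.15, numpy 2.4.6, pandas 2.3.3, scipy 1.17.1 and matplotlib 3.10.9 were used.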

Additional observations from a re-analysis of the deposited data

How the results depend on the processing

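Of 76 values recomputed under alternatives, 51 stayed within 1.5 times the count, or within the counting interval of the share, reported above. With more gene types (unclassified transcripts and transcribed pseudogenes) there were 933 clusters in 395 genes. Keeping clusters at or above the median count of all clusters left 366 in 120 genes, and keeping the top 10% left 118 in 32 genes with 16103 counts. Merging clusters within 200 nt gave 364. The share of windows with GCATG was 12.9% with a flank of 20 nt and 32.5% with 100 nt, 26.2% at or above the median count, 30.9% in the top 10% and 26.9% with 1 cluster per gene; with other motifs it was 12.1% for TGCATG, 3.89% for GCACG and 13.4% for CATGC. The difference from placements was 16.7 points with a flank of 100 nt, 13.9 in the top 10%, 13.1 with 1 cluster per gene, 3.68 for CATGC and, below 0, -1.85 for GCACG. The 10 highest clusters held 33.3% of the count at or above the median, 59.5% after merging, 30.3% without Gm26917 and 28.8% without clusters that share a 20-mer with a gene elsewhere. The cause of these shifts was not tested beyond the fewer or other clusters each setting counts. Leaving out Gm26917, the gene with the most windows, was planned for the 2 motif values over all members. Leaving it out of the counts, the hexamer ranks and the groups by type, count, width and transcript, leaving out genes that RefSeq lists as protein coding or clusters with shared 20-mers, and the split by width, were chosen after seeing the data. No paired analysis was possible because the 3 libraries are pooled in 1 list, and for the same reason no library could be left out in turn. A complete exonic window, and so a motif value, was had for 514 of 589 clusters.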

Other observations

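Some member genes held far more clusters in introns than in exons. Pvt1, the neighbour of Myc, had 4 exonic clusters (83 counts) and 131 intronic clusters (2640 counts), and Lncpint had 8 exonic (172 counts) and 82 intronic clusters (1754 counts). Airn, the imprinted RNA opposite to Igf2r, had 1 exonic cluster of 14 counts and 49 intronic ones. None of these intronic clusters lay inside a protein-coding gene on the same strand. In 1300002E11Rik, by contrast, all 42 intronic clusters (12084 counts, against 80 in its 3 exonic clusters) also lay inside a protein-coding gene, so they cannot be told apart from its pre-mRNA. By length, intronic density was 0.393 per kb in Pvt1 and 0.628 in Lncpint, below the exonic densities of 0.572 and 1.08 clusters per kb. It was above the exonic density in Airn (0.425 against 0.278) and in 1300002E11Rik (4 against 0.712). These genes were chosen after their values were seen.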
